A study of Homo sapiens with 12 samples.

Results

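The 8 genes described here are the immediate early response genes IER2, IER3, IER5 and IER5L, the mRNA decay factors ZFP36, ZFP36L1 and ZFP36L2, and BTG1, a partner of the deadenylation machinery. They were chosen by symbol among the 60612 rows of the deposited count table, each symbol had 1 row, and all 8 were among the 17779 genes that passed the filter on low counts. HepG2, a cell line established from a human liver tumour, had been exposed to 0.001 µM of the phenoxy herbicide 2,4-D for 10, 30 or 360 min, and untreated cells were labelled 0 min. Each of the 4 groups held 3 biological replicates, cells were detached with trypsin before RNA extraction, and no untreated cells kept for 10, 30 or 360 min were analysed here. Exposure and the time that passed cannot be told apart in any comparison between the 4 groups. The genes were picked with the lower values of IER3 and ZFP36 at 10 and 30 min already known, so the values of the 8 genes at 10 and 30 min against 0 min, and at 30 against 10 min, are given as a description with no p. The comparisons of 360 with 30 min and 360 with 0 min were tested, and both share libraries with the described ones. A choice made with low 30 min values known favours a rise from 30 to 360 min. It likewise favours a fall from 0 to 360 min.

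Immediate early genes are transcribed within minutes of a stimulus without new protein synthesis, and their short-lived mRNAs soon disappear again. Proteins of the ZFP36 family bind AU-rich elements in 3′ untranslated regions (UTRs) through a pair of zinc fingers and recruit the CCR4-NOT deadenylase, which shortens the poly(A) tail and exposes the mRNA to decay. Several early genes, ZFP36 and IER3 among them, carry such elements themselves. BTG1 belongs to an antiproliferative family whose members bind the CCR4-NOT nucleases CNOT7 and CNOT8.

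Library totals ran from 29766148 to 83539763 counts, and the smallest count of any member in any library was 157. All 12 hepatocyte and HepG2 markers examined had more than 1 TMM-scaled CPM in every library, with ALB at 7871 to 9516 CPM. CPM stands for counts scaled to 1000000 per library. The leukocyte marker PTPRC and the fibroblast markers COL1A2 and DCN had no counts, while LYZ, on the leukocyte list, stood at 1738 to 1959 CPM. The libraries split by their share of mitochondrial counts into 7 with 3.55% to 4.39% and 5 with 2.52% to 2.74%. Replicates on the same side of this split differed by a chi-square of 5.89 to 8.62 per degree of freedom, and replicates on opposite sides by 18.1 to 33.5. Among the untreated libraries, replicate 1 lay alone on the side with the higher share. It also had the lowest untreated CPM of IER2 and ZFP36, so comparisons of 360 with 0 min that rest on it are also given without it and against it alone. With 1 untreated library alone, the spread behind a p comes from the other groups, and that library is assumed to vary like them.

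IER3 encodes a stress-inducible regulator of apoptosis and ERK signalling. The gene (ENSG00000137331) lies on chromosome 6, 30743199 to 30744554, minus strand (GRCh38). Its annotated 3′ UTR of 737 bases holds 6 copies of the AU-rich pentamer ATTTA, of which 4 lie in the heptamer TATTTAT. The stretch shown, at chr6:30743653-30743681 on the minus strand, holds a pair of them in capitals and comes from the GENCODE release 29 transcript.
IER3: ctcctaattaatATTTAtatgtATTTAtg

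Expression of IER3 went through a trough at 30 min and was higher again at 360 min. In untreated replicates 1 to 3 it stood at 143, 134 and 155 CPM, at 10 min at 101, 99.4 and 99.8 CPM, at 30 min at 54.0, 58.1 and 50.3 CPM, and at 360 min at 141, 141 and 158 CPM. The 10 min libraries lay below all untreated ones, the 30 min libraries below all 10 min ones, and the 360 min libraries overlapped the untreated range. The log2 fold change was -0.53 ± 0.06 (SE) at 10 min and -1.41 ± 0.06 at 30 min against 0 min. At 30 min against 10 min it was -0.88 ± 0.06. Between 30 and 360 min it rose by 1.44 ± 0.06 (2.71-fold, edgeR adjusted p = 2.26e-08), to 147 ± 10.1 CPM at 360 min, against 54.1 ± 3.92 CPM at 30 min (SD, n = 3 each). At 360 min the difference from 0 min was 0.03 ± 0.06 (edgeR adjusted p = 0.82), with means of 147 ± 10.1 CPM at 360 min and 144 ± 10.7 CPM at 0 min (SD, n = 3 each). In RNA from whole cultures, less RNA per cell and fewer cells that carry it cannot be told apart. The 30 min trough had the same depth on both sides of the mitochondrial split, with log2 ratios to 0 min of -1.40 on the higher side and -1.42 on the lower side, from 1 or 2 libraries per group.

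**Figure D1:**
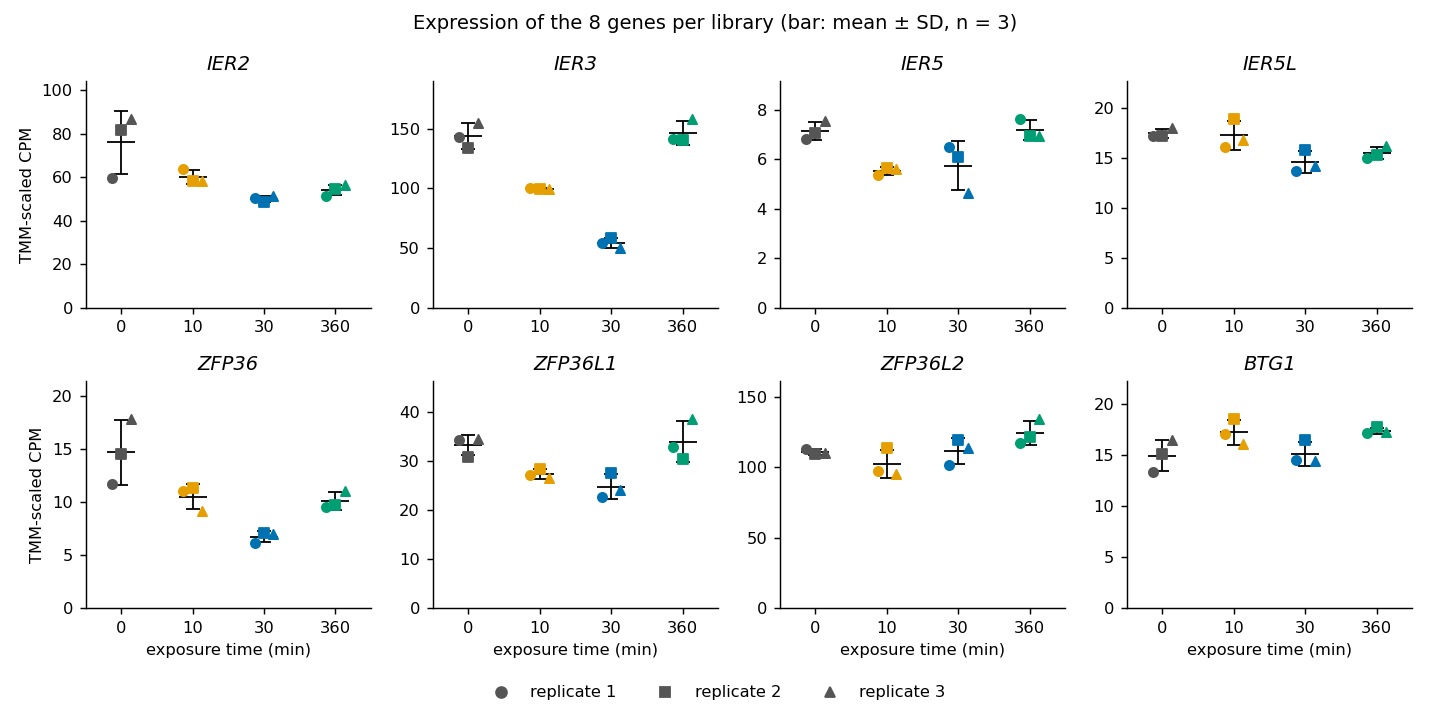
TMM-scaled CPM of the 8 genes in each library (y axis, from 0) by exposure time in min (x axis, categories), with replicates as points and the mean ± SD of 3 libraries as bars. IER3 is lowest at 30 min, between 50.3 and 58.1 CPM, and back between 141 and 158 CPM at 360 min, while ZFP36L2 and BTG1 show no such trough.

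The antisense gene IER3-AS1 overlaps the 3′ end of IER3 by 394 bases on the opposite strand, and without strand information their reads cannot be separated. IER3-AS1 averaged 5.08 ± 1.40 CPM at 0 min, 3.17 ± 0.68 at 10 min, 2.08 ± 0.30 at 30 min and 4.78 ± 0.15 at 360 min (SD, n = 3 each). It rose by 1.21 ± 0.20 between 30 and 360 min (edgeR adjusted p = 0.00081). The log2 ratio of IER3 to IER3-AS1 counts averaged 4.86, 5.00, 4.71 and 4.94 at 0, 10, 30 and 360 min, and the groups overlapped in each of the 5 comparisons. FLOT1, which begins within 2 kb of the IER3 start, did not follow it: it fell between 30 and 360 min by 0.18 (SE 0.03, edgeR adjusted p = 0.00082).

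IER2 encodes a nuclear protein that acts in transcriptional responses and binds the phosphatase PP2A. It lies on chromosome 19, 13150415 to 13154908, plus strand (ENSG00000160888, GRCh38). Its annotated 3′ UTR of 1050 bases is the only one among the 8 genes with no ATTTA pentamer. In untreated replicates 1 to 3 it stood at 59.7, 82.0 and 86.9 CPM, at 10 min at 63.7, 58.4 and 58.4 CPM, at 30 min at 50.3, 48.8 and 51.2 CPM, and at 360 min at 51.5, 54.4 and 56.5 CPM. The 30 and 360 min libraries lay below all untreated ones, and untreated replicate 1 was within the range of the 10 min libraries. The log2 fold change was -0.34 ± 0.10 at 10 min and -0.61 ± 0.10 at 30 min against 0 min. On the higher side of the mitochondrial split the log2 ratio to 0 min was 0.01 at 10 min and -0.26 at 30 min, against the 1 untreated library there, and on the lower side it was -0.75 at 30 min. At 360 min IER2 was lower than at 0 min (log2 fold change -0.50, SE 0.10, edgeR adjusted p = 0.0047), at 54.2 ± 2.51 CPM at 360 min against 76.2 ± 14.5 CPM at 0 min (SD, n = 3 each). This call was lost against untreated replicate 1 alone, where the value was -0.14 (edgeR adjusted p = 0.22), and without replicate 1 the value was -0.65. Within the sides of the mitochondrial split the log2 ratio of 360 to 0 min was -0.08 on the higher side, with 1 library per group. On the lower side it was -0.67, with 2 per group. With a term for the split in the fit IER2 kept its call at 360 min against 0 min. Whether the difference depended on the side was not tested. From 30 min to 360 min IER2 differed by 0.11 ± 0.10 (edgeR adjusted p = 0.48).

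The antisense gene AC011446.2 overlaps IER2 by 1123 bases on the opposite strand. It stood at 2.89, 4.85 and 9.24 CPM in the untreated replicates and at 2.40 to 2.68 CPM at 360 min, a fall of 1.13 on the log2 scale (SE 0.36, edgeR adjusted p = 0.044). This call was lost without untreated replicate 3 (-0.59, adjusted p = 0.23) or replicate 2 (-1.24, adjusted p = 0.063) and against untreated replicate 1 alone (-0.16, adjusted p = 0.85), and without replicate 1 the value was -1.44. Without strand information its reads and those of IER2 cannot be told apart, and IER2 stood at 48.8 CPM or more in every library. STX10, which begins 32 bases from the IER2 start on the opposite strand, kept means between 34.0 and 35.8 CPM in the 4 groups and was not called in any of the 5 comparisons.

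Within a library the log2 ratio of IER3 to IER2 counts needs no scaling. It ran from 0.71 to 1.26 at 0 min, from 0.66 to 0.77 at 10 min, from -0.03 to 0.25 at 30 min and from 1.37 to 1.49 at 360 min. At 360 min the ratio was higher than at 30 min by 1.33, with every 360 min library above every 30 min one. It was also higher than at 0 min by 0.50, again without overlap, by 0.66 without untreated replicate 1 and by 0.18 against that replicate alone. Both differences reached an exact permutation p of 0.1 (two-sided), the smallest that 3 against 3 libraries allow.

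**Figure D2:**
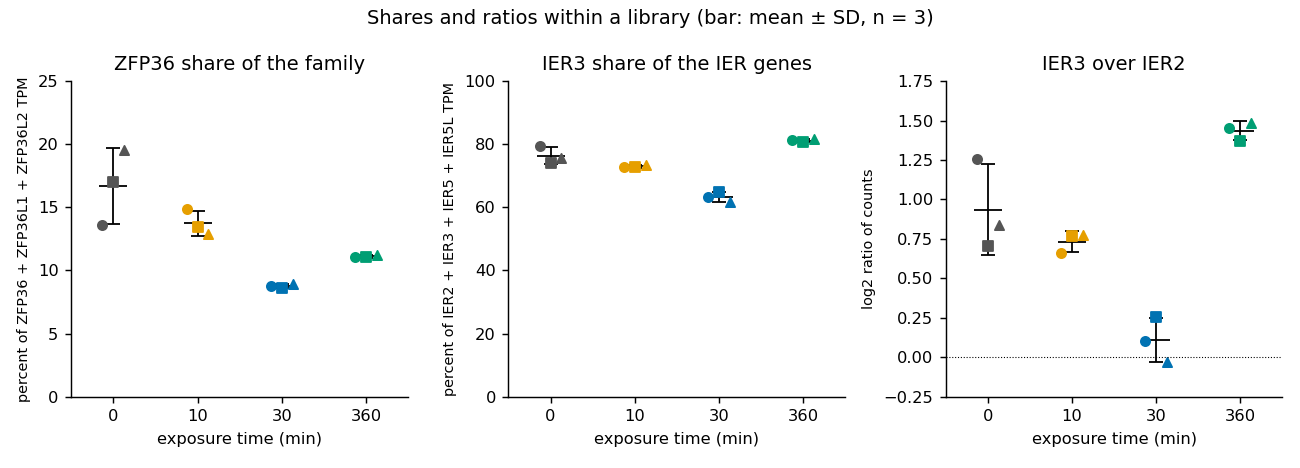
Percent of the summed per-length level (TPM) of the ZFP36 family that is ZFP36 (left), percent of the 4 IER genes that is IER3 (middle) and log2 ratio of IER3 to IER2 counts (right), by exposure time in min, with libraries as points and mean ± SD of 3 as bars. The ZFP36 share is lowest at 30 min, at 8.61% to 8.95%, and the IER3 share is highest at 360 min, at 80.6% to 81.8%.

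IER5 encodes a nuclear protein that brings PP2A to the heat shock factor HSF1, and IER5L is its less studied paralog. IER5 lies on chromosome 1 (181088712 to 181092899, plus strand) and IER5L on chromosome 9 (129175552 to 129178262, minus strand). The IER5 3′ UTR of 3013 bases has the most pentamers of the 8 genes, with 10, and its densest stretch, at chr1:181092451-181092479 on the plus strand, holds 4 overlapping copies, in capitals.
IER5: ctttATTTATTTATTTATTTAattataaa

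IER5 stood at 6.80, 7.06 and 7.53 CPM in the untreated replicates, at 5.35, 5.65 and 5.59 at 10 min, at 6.49, 6.09 and 4.61 at 30 min, and at 7.63, 6.93 and 6.93 at 360 min. Every 10 and 30 min library lay below every untreated and every 360 min one. The difference between 30 and 360 min, 0.31 ± 0.11, did not pass (edgeR adjusted p = 0.064), and it passed without 30 min replicate 1 (0.41, adjusted p = 0.035). At 360 min IER5 differed from 0 min by 0.01 ± 0.11 (edgeR adjusted p = 0.98). IER5L averaged 17.5 ± 0.43 CPM at 0 min, 17.3 ± 1.48 at 10 min, 14.6 ± 1.12 at 30 min and 15.5 ± 0.61 at 360 min (SD, n = 3 each). The antisense gene AL158151.1, which overlaps IER5L by 1492 bases, had at most 10 counts in a library. Neither tested difference of IER5L passed, with 0.09 ± 0.07 at 360 min against 30 min (edgeR adjusted p = 0.45) and -0.18 ± 0.07 at 360 min against 0 min (adjusted p = 0.12).

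ZFP36 encodes tristetraprolin, the founding member of the AU-rich element binding family. It lies on chromosome 19, 39406813 to 39409412, plus strand (ENSG00000128016). ZFP36L1 lies on chromosome 14 (68787660 to 68796253) and ZFP36L2 on chromosome 2 (43222402 to 43226609), both on the minus strand. Their own 3′ UTRs hold 5, 8 and 5 ATTTA pentamers in 713, 1871 and 1917 bases, and each has 1 copy of the nonamer TTATTTATT. The stretches shown put family members side by side, with pentamers in capitals, at chr19:39409196-39409224 on the plus strand and at chr14:68787724-68787752 and chr2:43223457-43223485 on the minus strand.
ZFP36: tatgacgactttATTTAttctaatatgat
ZFP36L1: ttctttgtgtgaATTTATTTAaaagaaaa
ZFP36L2: aatatgaaaactATTTAacttATTTAtta

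ZFP36 was lowest at 30 min and came back in part. It stood at 11.7, 14.6 and 17.9 CPM in untreated replicates 1 to 3, at 11.1, 11.3 and 9.22 at 10 min, at 6.16, 7.12 and 6.99 at 30 min, and at 9.52, 9.72 and 11.1 at 360 min. Each exposed group lay below the untreated libraries without overlap, and the 360 min libraries overlapped those at 10 min. The log2 fold change was -0.49 ± 0.14 at 10 min and -1.13 ± 0.14 at 30 min against 0 min, and -0.64 ± 0.14 at 30 min against 10 min. On the higher side of the mitochondrial split the log2 ratio to 0 min was -0.15 at 10 min and -0.73 at 30 min, against the 1 untreated library there. On the lower side it was -1.40 at 30 min. Whether these values depended on the side was not tested. Between 30 and 360 min ZFP36 rose by 0.59 ± 0.14 (edgeR adjusted p = 0.0080), to 10.1 ± 0.87 CPM at 360 min against 6.76 ± 0.52 CPM at 30 min (SD, n = 3 each). At 360 min it was lower than at 0 min (log2 fold change -0.54, SE 0.13, edgeR adjusted p = 0.013). Without untreated replicate 1 the value was -0.69, against that replicate alone it was -0.21 (edgeR adjusted p = 0.41), and the call was also lost without 0 min replicate 3 (-0.38, adjusted p = 0.058) or 360 min replicate 1 (-0.50, adjusted p = 0.056). On the sides of the mitochondrial split the log2 ratio of 360 to 0 min was -0.08 (higher share, 1 library per group) and -0.76 (lower share, 2 per group). With a term for the split in the fit ZFP36 kept its call at 360 min against 0 min. Whether this difference depended on the side was not tested.

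ZFP36L1 had a shallower trough. It stood at 34.3, 30.9 and 34.4 CPM in the untreated replicates, at 27.1, 28.5 and 26.5 at 10 min, at 22.7, 27.5 and 24.1 at 30 min, and at 32.9, 30.4 and 38.6 at 360 min. The 10 and 30 min libraries overlapped each other and lay below all others. ZFP36L1 rose by 0.46 ± 0.09 between 30 and 360 min (edgeR adjusted p = 0.0024), and its value at 30 min against 10 min was -0.14 ± 0.09. At 360 min it differed from 0 min by 0.04 ± 0.09 (edgeR adjusted p = 0.84).

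ZFP36L2 was not called in any of the 5 comparisons. It stood at 113, 109 and 110 CPM in the untreated replicates, at 97.4, 114 and 95.4 at 10 min, at 102, 119 and 114 at 30 min, and at 117, 121 and 134 at 360 min. All 3 libraries at 360 min lay above the untreated ones, and the difference of 0.17 ± 0.07 did not pass (edgeR adjusted p = 0.13). Against 30 min the value was 0.16 ± 0.07 (adjusted p = 0.13). Under the alternative settings listed below, the difference from 0 min passed in 1 of 22 and that from 30 min in 1 of 21. The lincRNA gene LINC01126, which begins 601 bases from the ZFP36L2 start on the opposite strand, had group means of 0.64 to 0.72 CPM.

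Per unit of exonic length, ZFP36L2 was the main ZFP36 family transcript in HepG2. At 0 min its level was 110 ± 3.56 TPM (transcript level scaled to 1000000 per library), against 27.1 ± 6.68 TPM for ZFP36 and 23.6 ± 1.45 TPM for ZFP36L1 (SD, n = 3 each), and the last 2 did not differ beyond their spread. The share of ZFP36L2 in the family's summed TPM averaged 68.6% at 0 min, 72.4% at 10 min, 78.7% at 30 min and 74.4% at 360 min. That of ZFP36 averaged 16.7%, 13.7%, 8.78% and 11.1% at the same times. The ZFP36 share at 360 min differed by 2.34 percentage points from that at 30 min and by -5.60 from that at 0 min, without overlap in both (exact permutation p = 0.1 for each, two-sided, the smallest possible). The difference from 0 min was -7.17 without untreated replicate 1 and -2.46 against that replicate alone. IER3, at 390 ± 37.2 TPM, was the highest of all 8 genes at 0 min, followed by ZFP36L2 and IER2 at 91.6 ± 21.2 TPM. Those neighbours did not differ beyond their SD, and IER5 was the lowest at 6.26 ± 0.58 TPM.

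BTG1 lies on chromosome 12 (92140278 to 92145897, minus strand) and was not called in any comparison. It stood at 13.3, 15.0 and 16.4 CPM in untreated replicates 1 to 3, at 17.0, 18.5 and 16.1 at 10 min, at 14.5, 16.4 and 14.3 at 30 min, and at 17.2, 17.7 and 17.2 at 360 min. The 360 min libraries lay above all untreated and all 30 min ones. Its log2 fold change at 360 min was 0.21 ± 0.08 against 0 min (edgeR adjusted p = 0.093) and 0.20 ± 0.08 against 30 min (adjusted p = 0.10). The first of these passed without 0 min replicate 3 (0.29, adjusted p = 0.044) and against untreated replicate 1 alone (0.38, adjusted p = 0.047). The 3′ UTR of BTG1, at 3802 bases the longest of the 8, holds 5 pentamers. A further gene pair lies over BTG1, LINC01619 with at most 9 counts in a library and AC025164.1 with group means of 0.16 to 0.43 CPM.

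**Figure D3:**
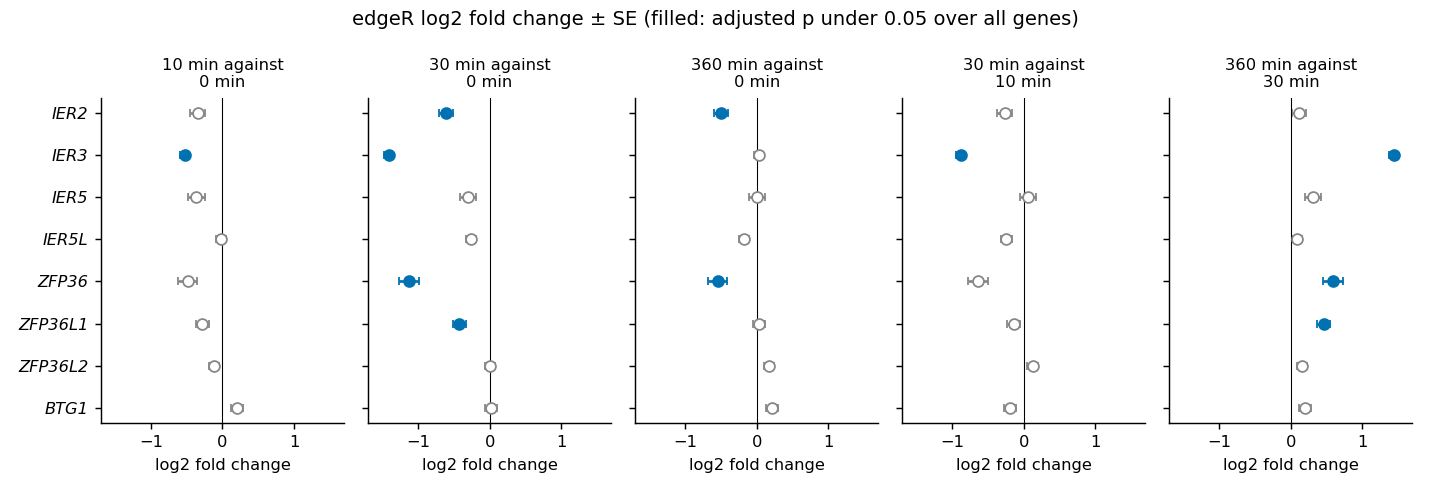
edgeR log2 fold change ± SE (x axis) of each gene (rows) in the 5 comparisons (panels), later time over earlier. Filled points passed an adjusted p of 0.05 over all 17779 genes, and those at 10 and 30 min against 0 min and at 30 min against 10 min are a description. Between 30 and 360 min all 8 points lie right of 0 and 3 are filled.

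Over the 8 genes, 1 was called lower at 10 min against 0 min, IER3. It was the only 1 of all 17779 genes called lower there (0.00562%), so that share is IER3 itself and no separate background. At 30 min against 0 min 4 were called lower (0.585% of all genes). At 30 min against 10 min 1 was called lower, IER3 (0.411%). These counts come from values in view when the genes were chosen. Between 30 and 360 min, 3 were called higher, IER3, ZFP36 and ZFP36L1, where 11.4% of all genes were. Counts for this step rest on 30 min libraries in view when the genes were chosen, which favours a rise. At 360 min against 0 min, 2 were called lower, IER2 and ZFP36, where 9.19% of all genes were. The median of the 8 genes on the log2 scale was -0.21 between 10 and 30 min, 0.26 between 30 and 360 min and 0.02 at 360 min against 0 min, beside medians of at most 0.0027 in size over all genes. Without overlap between the groups, 4 genes were lower at 30 than at 10 min (8.96% of all genes were), 6 were higher at 360 than at 30 min (19.8%), and at 360 min against 0 min 3 were lower (17.3%) and 2 higher (18.3%). The order of the group means differed between genes. The 30 min mean was the lowest for IER2, IER3, IER5L, ZFP36 and ZFP36L1, the 10 min mean for IER5 and ZFP36L2, and the 0 min mean for BTG1. For each of the genes other than IER2 and IER3 most neighbouring means lay within their SD of each other.

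**Figure D4:**
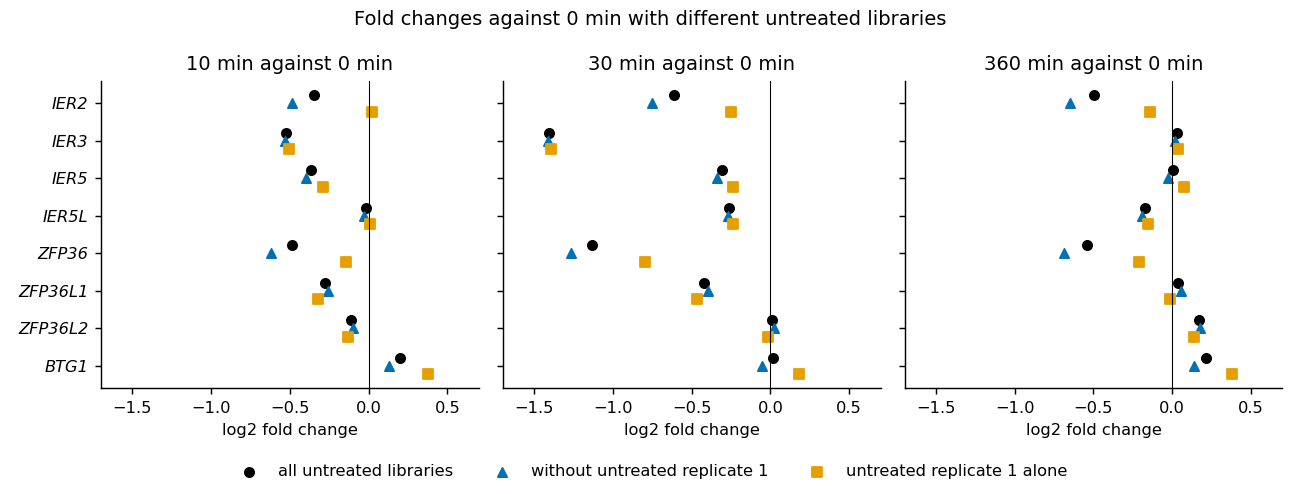
Log2 fold changes of the 8 genes (rows) at 10, 30 and 360 min against 0 min (panels) with all untreated libraries (circles), without untreated replicate 1 (triangles) and with that replicate alone (squares). IER3 hardly moves, between -1.40 and -1.41 at 30 min, while IER2 at 360 min runs from -0.65 without replicate 1 to -0.14 with it alone.

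The pentamers of these 3′ UTRs are a common feature. ATTTA, searched on the transcript strand only, was found in the annotated 3′ UTR of 66.8% of 12903 tested protein-coding genes, the heptamer TATTTAT in 30.6% and the nonamer TTATTTATT in 7.89%, and longer motifs contain the shorter ones. The density of pentamers was 8.14 per kb in IER3, 7.01 in ZFP36, 4.28 in ZFP36L1, 3.32 in IER5, 2.61 in ZFP36L2, 2.33 in IER5L and 1.31 in BTG1, against a median of 1.47 over those genes. A match describes the annotated sequence and was not tested for binding.

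**Figure D5:**
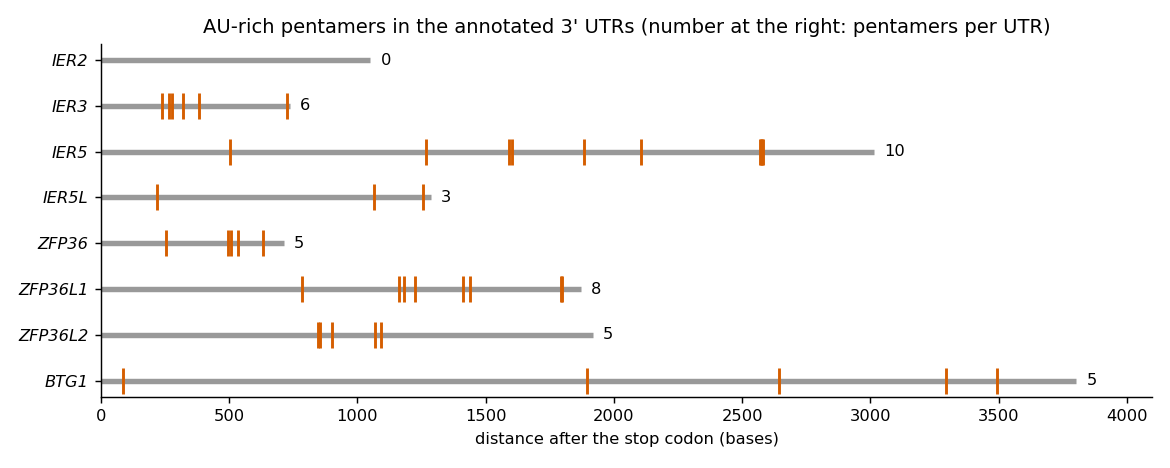
Annotated 3′ UTRs of the 8 genes drawn to scale (grey, x axis in bases after the stop codon), with each ATTTA pentamer as a tick and their number at the right end. IER3 holds 6 in 737 bases and ZFP36 holds 5 in 713 bases, while IER2 holds none in 1050 bases.

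Promoter sequences, from 250 bases before to 50 after a start site, were matched in RefSeq (GRCh38.p14) for 6 of the 8 genes, with a pair of start sites for ZFP36L1. IER2 and ZFP36, the genes called lower at 360 min, are shown for comparison, at chr19:13150161-13150460 and chr19:39406597-39406896 on the plus strand. Capitals mark the ETS motif CCGGAAG, the cyclic AMP response element core TGACG and the SP1 motif GGGCGG on either strand.
IER2: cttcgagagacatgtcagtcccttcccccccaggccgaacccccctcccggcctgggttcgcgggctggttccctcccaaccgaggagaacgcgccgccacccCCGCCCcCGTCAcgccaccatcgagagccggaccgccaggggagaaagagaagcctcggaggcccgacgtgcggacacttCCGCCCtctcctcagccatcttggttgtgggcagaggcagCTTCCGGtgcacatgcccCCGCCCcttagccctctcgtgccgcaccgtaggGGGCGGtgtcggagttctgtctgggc
ZFP36: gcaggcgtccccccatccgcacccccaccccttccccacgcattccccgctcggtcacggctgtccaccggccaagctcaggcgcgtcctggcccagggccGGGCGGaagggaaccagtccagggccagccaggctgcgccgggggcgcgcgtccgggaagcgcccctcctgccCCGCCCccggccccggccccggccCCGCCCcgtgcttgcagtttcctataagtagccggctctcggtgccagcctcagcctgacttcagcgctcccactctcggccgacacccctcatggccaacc

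IER2 holds 1 ETS motif, 1 TGACG and 4 GGGCGG, and ZFP36 holds 3 GGGCGG and neither of the others. Over all 35116 promoter windows, CCGGAAG was found in 10.3%, TGACG in 24.6% and GGGCGG in 45.0%. The full element TGACGTCA, found in 1.85%, stood at the second start site of ZFP36L1 (chr14:68793367-68793666, minus strand), where it contains TGACG on both strands. The heat shock motif GAANNTTC, found in 6.77%, occurred once each in the windows of IER5 and IER5L and at the second ZFP36L1 start site. The CArG box (1.29%) and the AP-1 motif TGACTCA (4.95%) did not occur in these 7 windows on either strand.

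For each called member the 3 genes with the most similar course over the 12 libraries were sought, and nearest need not mean the same. At 30 min against 0 min, for example, LIN7C stood at -0.15 where ZFP36L1, to which it was nearest, stood at -0.42 (log2). Likeness was measured as the root mean square difference of log2 CPM after centring each gene on its mean, among 12435 genes whose mean log2 CPM was 1 or more. Nearest to ZFP36 was JUNB, an AP-1 subunit, at 0.083, followed by the ERK phosphatase DUSP6 at 0.18 and the ERK pathway inhibitor SPRY4 at 0.19, where the median over all genes searched was 0.43. JUNB stood at 14.9, 20.3 and 23.0 CPM in untreated replicates 1 to 3, at 14.5, 14.7 and 12.8 at 10 min, at 9.08, 10.5 and 8.84 at 30 min, and at 12.3, 11.8 and 14.4 at 360 min. As with ZFP36, untreated replicate 1 was the lowest of its group. Nearest to IER3 were the transcriptional coregulator CITED2 at 0.24, AC024909.1 at 0.25 and DUSP6 at 0.26 (median 0.59). IER2 was nearest to CSRNP1 at 0.11, to the pseudokinase gene TRIB1 at 0.12 and to ITPRIP at 0.15 (median 0.27). ZFP36L1 was nearest to LIN7C, the elongation factor cyclin gene CCNT1 and the TFIID subunit gene TAF5, each at 0.11 (median 0.23). Low values are easier to reach for genes that vary little. The root mean square of the centred gene itself was 0.42 for ZFP36, 0.59 for IER3, 0.25 for IER2 and 0.22 for ZFP36L1. These lie near the medians above, so a median is about the distance to a gene that does not vary.

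Of 26 tested deadenylation and decapping factors, with which ZFP36 and BTG proteins work, 4 rose at 360 min against 0 min, where 8.89% of all genes were called higher. The list's median was 0.05 on the log2 scale, without untreated replicate 1 4 rose and 1 fell, and with it alone 2 rose and 1 fell. CNOT1, the CCR4-NOT scaffold, rose by 0.32 ± 0.04 (edgeR adjusted p = 0.00012), the decapping enzyme gene DCP2 by 0.29 ± 0.05 (0.0026), the helicase gene DDX6 by 0.21 ± 0.04 (0.0012) and the deadenylase gene CNOT6 by 0.19 ± 0.04 (0.0058). The BTG1 partners CNOT7, at 0.09 ± 0.04, and CNOT8, at 0.02 ± 0.05, did not pass (edgeR adjusted p = 0.17 and 0.85). At 30 min against 0 min edgeR, DESeq2 and limma voom called 0 of the 26, and 3 had an unadjusted p under 0.05.

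Among 15 other RNA-binding regulators of mRNA stability, 7 rose at 360 min against 0 min (median 0.11), where 8.89% of all genes were called higher. Without untreated replicate 1 the count was 5, and with it alone 2. The stress granule protein gene TIA1 rose by 0.25 ± 0.04 (edgeR adjusted p = 0.00082). Of 4 tested members of the BTG and TOB family, 3 rose between 30 and 360 min, where 11.4% of all genes were called higher. They were BTG2 by 1.13 ± 0.10 (edgeR adjusted p = 9.97e-06), TOB2 by 0.59 ± 0.05 (7.77e-06) and TOB1 by 0.26 (0.0023). At 360 min against 0 min 2 of the 4 were called higher (8.89% of all genes). Without untreated replicate 1 the count was again 2, and neither call was kept against that replicate alone. No test of the difference of these family members from BTG1 was run. BTG2 stood at 9.95 ± 1.10 CPM at 0 min, 6.96 ± 0.52 CPM at 30 min and 15.2 ± 1.47 CPM at 360 min (SD, n = 3 each).

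Of 20 tested mRNAs known as targets of the ZFP36 family, IER3 among them, 6 rose and 6 fell between 30 and 360 min (median -0.09, with 11.4% and 11.3% of all genes called higher and lower). At 360 min against 0 min 3 rose and 9 fell, where 8.89% of all genes were called higher and 9.19% lower. The apoptosis inhibitor gene BIRC3 rose by 0.82 ± 0.09 (edgeR adjusted p = 4.96e-05), and the cyclin gene CCND1 fell by 0.36 (SE 0.04, 3.25e-05). Without untreated replicate 1, 2 rose and 9 fell, and with it alone 2 rose and 6 fell.

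The partners of the IER proteins were examined as 2 lists. Of 12 tested PP2A subunit genes 1 was lower at 360 min against 0 min, PPP2R5D by 0.10 (SE 0.03, edgeR adjusted p = 0.031), where 9.19% of all genes were called lower, and no call was made with untreated replicate 1 alone. Of 13 HSF1-related genes, 9 rose and 2 fell at 360 min against 0 min (median 0.30; 8.89% of all genes were called higher and 9.19% lower), and HSPH1 rose by 0.45 ± 0.04 (edgeR adjusted p = 2.45e-05). Without untreated replicate 1 the counts were 9 and 2, and with it alone 9 rose and none was called lower. HSPA1A and HSPA1B on this list are near-identical copies, so reads may be split between them and their values are uncertain. IER5, with a value of 0.01 ± 0.11 in this comparison, was not called.

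Of 23 tested serum-response early genes 17 fell and 1 rose at 360 min against 0 min (median -0.81), where 9.19% of all genes were called lower and 8.89% higher. Without untreated replicate 1, 18 fell, and with it alone 13 fell. The gene that rose was BTG2, and its call was not kept against untreated replicate 1 alone. Between 30 and 360 min 4 rose and 7 fell (median -0.34; 11.4% and 11.3% of all genes). FOS stood at 85.1 ± 63.3 CPM at 0 min, 2.94 ± 0.67 CPM at 30 min and 2.11 ± 0.72 CPM at 360 min (SD, n = 3 each), and differed by -0.60 ± 0.76 between 30 and 360 min (edgeR adjusted p = 0.62), where IER3 and ZFP36 rose. Whether IER3 or ZFP36 differed from FOS in that step was not tested.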

How the data were processed

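The authors deposited whole-number read counts per gene for 12 poly(A)-selected libraries, and the values had not been normalized. The build GRCh38 and the tools HISAT2 and DESeq2 are named, per the submitters' processing notes. Which program counted the reads, with what annotation, and whether strand was used is not given in the sources used here. The deposited counts were tested with edgeR 4.0.16 (R 4.3.3): filterByExpr by group, TMM scaling (factors 0.98 to 1.01), a quasi-likelihood fit to all 12 libraries with 1 coefficient per group (8 residual degrees of freedom) and Benjamini-Hochberg adjustment over 17779 genes, called at 0.05. The SE is the log2 fold change over the square root of F. The p-values are two-sided and measure the spread between these biological replicates. CPM are TMM-scaled. TPM use exonic lengths of GENCODE release 29, in which 58394 of 60612 identifiers (96.34%) were found. A count of 3, taken as the floor, corresponded to 0.036 to 0.101 CPM, for counting error only.

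The 3′ UTR of each gene was that of the best-ranked principal transcript. The script was tested on simulated data. Alternatives were DESeq2 1.42.0, limma voom (limma 3.58.1), RLE and total-count scaling, no filter or a stricter one (3 libraries at 1 CPM or more), the compared groups alone, a replicate block, a term for the mitochondrial split, untreated replicate 1 alone and the omission of each library. List counts, ratios and neighbouring genes with other untreated libraries were chosen after seeing the data. Members and gene lists were chosen with earlier results of these data known. The comparison of 30 with 10 min was fitted as a test, and it is given for the members as a description because both groups were in view. Named were all 8 members, genes that overlap them or begin within 2 kb of their start, in each list up to 4 genes with the smallest p per comparison with 0 min, and the 3 genes most like each called member. CNOT7 was named outside this rule, after its values were seen. A gene that this rule also names is not reported here.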

Additional observations from a re-analysis of the deposited data

How the results depend on the processing

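The count of the 8 genes called between 30 and 360 min stayed at 3 or 4 under all 21 alternatives. At 10 min against 0 min it was 1, 2 by DESeq2, 0 against untreated replicate 1 alone and 0 to 2 over the omissions of 1 library. At 30 min against 0 min it was 4, 2 with the compared groups alone, 1 against untreated replicate 1 alone (IER3) and 2 to 4 over the omissions. At 360 min against 0 min it was 2, 1 against untreated replicate 1 alone (BTG1, higher) and 1 to 2 over the omissions. It reached 3 in another setting, where ZFP36L2 was also called. Between 10 and 30 min the count was 1, 2 by DESeq2, 2 with the compared groups alone and 1 to 3 over the omissions. The cause of these changes was not tested. Counts of the 8 genes in comparisons up to 30 min come from values in view when the genes were chosen. Over all genes the counts ran from 1 to 174 (main 3), 52 to 271 (136), 1751 to 3501 (3215), 39 to 290 (102) and 3024 to 4551 (4034) in the order 10, 30 and 360 min against 0 min, 30 against 10 min and 360 against 30 min.

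Of the recomputed fold changes of single members, 803 kept their direction and side of the threshold, 27 lost and 12 gained the call, and 22 changed sign, all of the last from values that were not called. Against untreated replicate 1 alone the sign turned for IER2 (0.020) and IER5L (0.010) at 10 min, ZFP36L2 at 30 min (-0.015) and ZFP36L1 at 360 min (-0.014). It also turned for ZFP36L2 at 30 min with the mitochondrial term (-0.039) and for IER5 at 360 min with total-count scaling (-0.0052). Over the omissions the values against 0 min ran from -0.091 to 0.029 for IER5L at 10 min, -0.042 to 0.069 for ZFP36L2 and -0.056 to 0.087 for BTG1 at 30 min, and at 360 min from -0.034 to 0.085 for IER3, -0.040 to 0.048 for IER5 and -0.068 to 0.10 for ZFP36L1. IER5 between 10 and 30 min ran from -0.045 to 0.19.

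Replicate numbers did not pair the libraries: 6 of 18 same-numbered pairs and 6 of 36 others had a correlation of deviations over 0.1, and 4 of 12 libraries matched best with their own number. With the replicate block the counts were 1, 3, 2, 1 and 3 in the order above, and ZFP36L1 at 30 min against 0 min lost its call. Its call there was lost under 12 of the 22 alternatives, that of IER2 under 7 and that of ZFP36 under 1. IER3 kept its 30 min call against 0 min under all 22. These 30 min calls come from values in view when the genes were chosen and are a description. The depth was not limiting for any member, whose counts were all at least 157.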
